A study of Caenorhabditis elegans with 5 samples.

Results

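The *nlp-29* group is a set of small peptide genes of the worm's skin, and 7 of them were listed here: *nlp-27*, *nlp-28*, *nlp-29*, *nlp-30*, *nlp-31*, *nlp-33* and *nlp-34*. They were found by gene symbol in the annotation of the array. Of the 7 genes, 6 had a probe set, 1 each, among 17118 genes in all. No probe set carried the symbol *nlp-34*, which therefore has no value here. The 6 measured genes were all above the floor on all 5 arrays, with 54.6 as their lowest signal against a floor of 24.9. They are thus among the 10076 genes tested, and none entered through a single bright array.

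RNA of whole *Caenorhabditis elegans* was hybridised to 5 one-colour Affymetrix arrays, 1 per group. Every group was wild-type Bristol N2, a pool of 100000 worms of mixed stages grown without bacteria for 10 days at 20 °C, with the defined medium CeMM as food. The space flight group was cultured in microgravity. The clinorotation group was turned so that the direction of gravity kept changing. The hypergravity group has labels of both 3 G and 10 G and is given no value here. The ground controls, both at 1 G, came from the mission's operation site and from Tsukuba space center. A condition has no replicate, and the SD of the controls is that of 2 arrays from different sites. In RNA of whole worms, fewer cells of a type and less RNA per cell cannot be told apart.

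The epidermis of *C. elegans* secretes the cuticle and is also a barrier with its own innate immunity. Small glycine-rich peptides of the NLP and caenacin families are made there when a fungus such as *Drechmeria coniospora* penetrates the cuticle, when the cuticle is wounded, or, for *nlp-29*, under high osmolarity. *nlp-29* is the standard reporter of this response, and a synthetic NLP-31 peptide is known to be active against fungi. On fungal infection, the induction of *nlp-29* runs from the receptor DCAR-1 and the G protein GPA-12 through protein kinase C and a p38 MAP kinase cascade. The cascade leads to the transcription factor STA-2, which has the transporter-like protein SNF-12 as its partner. The GATA factor ELT-3 maintains expression in the epidermis.

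All 6 measured genes were lower in space flight, in clinorotation and in hypergravity than in both ground controls after the arrays had been brought to 1 signal distribution. The largest distance was that of *nlp-30*, at 34.6% of the control mean in space flight. The smallest was that of *nlp-33*, at 97.9% of the control mean in clinorotation. Of all genes tested, 7.38% (744 of 10076) lay below both controls in all 3 conditions. The 3 comparisons use the same 2 control arrays and are not independent of each other. No gene passed limma after adjustment over the 10076 genes, with 1 residual degree of freedom behind the test. An exact permutation of 1 array against 2 cannot give a one-sided p below 0.333.

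Signals below are quantile-scaled and in arbitrary units, and the genes are described in their order on the chromosome. *nlp-31* read 226 in space flight, 273 in clinorotation and 217 in hypergravity, against 555 in the operation-site control and 426 in the Tsukuba control. All 3 conditions lay near each other and well apart from both controls. *nlp-30*, a neighbour that is also induced by fungal infection, read 54.6, 89.5 and 68.6 in space flight, clinorotation and hypergravity, against 187 at the operation site and 134 at Tsukuba. It had the widest range of the 6 genes, 3.42-fold from its lowest to its highest array. *nlp-29* itself read 173 in space flight, 216 in clinorotation and 188 in hypergravity, against 393 at the operation site and 275 at Tsukuba. The conditions did not overlap with the controls, but the controls were 1.43-fold apart.

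*nlp-28* read 221 in space flight, 275 in clinorotation and 256 in hypergravity, against 356 at the operation site and 348 at Tsukuba. Its controls were close together, with a control SD of 0.02 (log2, n = 2), and its range over the 5 arrays was the narrowest, at 1.61-fold. *nlp-27* read 162, 143 and 169 in space flight, clinorotation and hypergravity, against 330.2 at the operation site and 227 at Tsukuba. It was the only one of the 6 with its lowest signal in clinorotation. *nlp-33*, which lies elsewhere on the same chromosome and is induced by the same fungus, read 127 in space flight, 262 in clinorotation and 171 in hypergravity, against 268 in each control. Its clinorotation signal was next to the controls, while space flight and hypergravity stood apart from them.

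**Figure D1:**
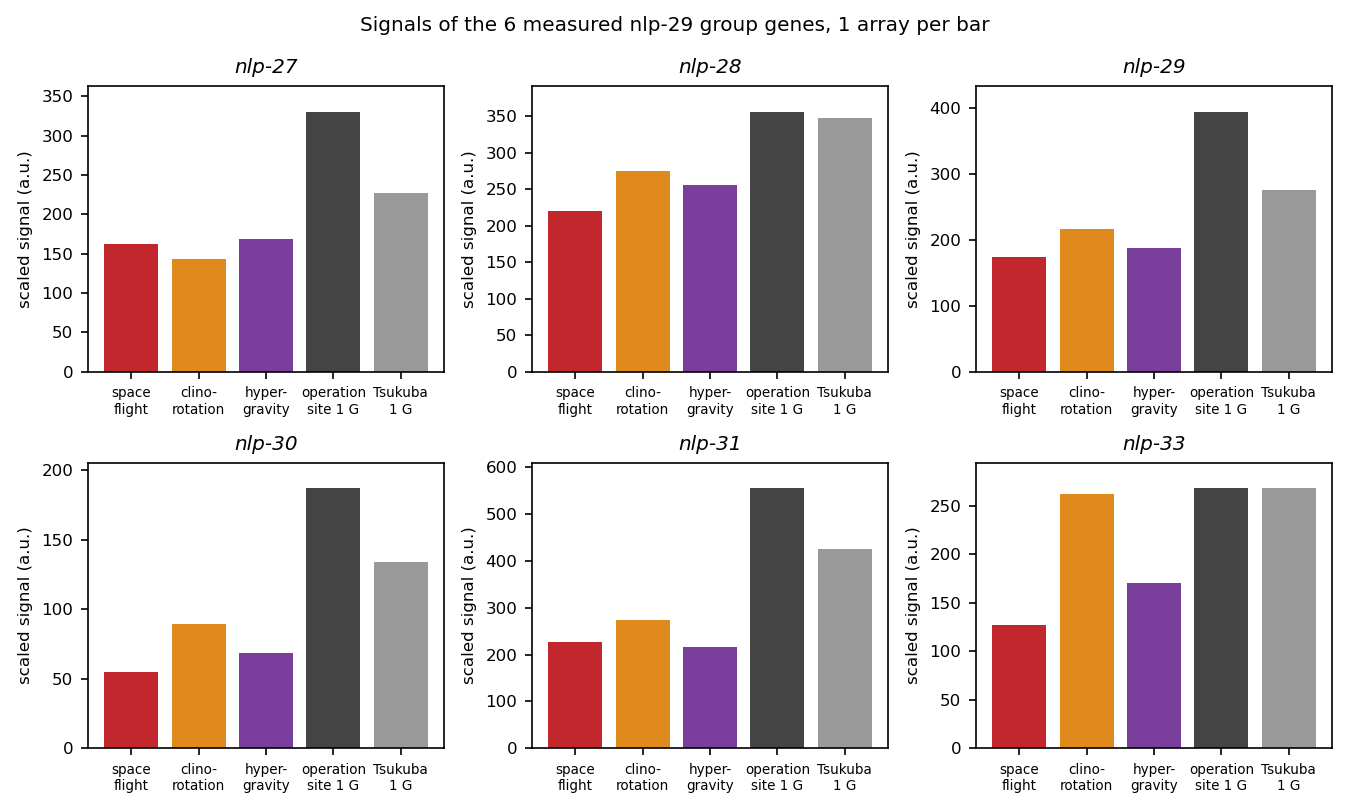
Scaled signal (vertical axes, arbitrary units, linear from 0) of each measured gene on the 5 arrays, with space flight, clinorotation and hypergravity left of the 2 ground controls. Each bar is 1 array, so there is no error bar. In all 6 panels the 3 coloured bars are lower than both grey bars, and for *nlp-33* the clinorotation bar (262) nearly reaches them (268).

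The order of the 5 arrays was nearly the same for all 6 genes. In *nlp-28*, *nlp-29*, *nlp-30* and *nlp-33* space flight was lowest, then hypergravity, then clinorotation. In *nlp-31* hypergravity (217) was just below space flight (226). The operation-site control was the highest array for 5 genes and equal to the Tsukuba control for *nlp-33*. The limma SE of a difference between 2 arrays ran from 0.29 to 0.46 (log2), and of the 4 steps between neighbouring arrays 1 or 2 per gene were larger than it. The step up to the nearer control exceeded that SE for *nlp-28* (0.34 from clinorotation, SE 0.29), *nlp-30* (0.58 from clinorotation, SE 0.46) and *nlp-31* (0.64 from clinorotation, SE 0.35). It did not for *nlp-27* (0.43 from hypergravity, SE 0.43), *nlp-29* (0.35 from clinorotation, SE 0.41) and *nlp-33* (0.03 from clinorotation, SE 0.31).

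Space flight was compared with the ground controls to see which genes differ after culture in microgravity. All 6 genes lay below both controls, against 29.4% of all genes tested, and none above both, against 36.3%. *nlp-30* and *nlp-33* were at least 2-fold below the nearer control, by 2.45-fold and 2.11-fold, where 0.516% of all genes tested (52 of 10076) lay that far below. *nlp-31* was 1.88-fold, *nlp-29* and *nlp-28* were both 1.58-fold, and *nlp-27* was 1.40-fold below it. Against the operation-site control alone, 5 of the 6 were at least 2-fold below, against 1.18% of all genes tested. At 1.5-fold below both controls there were also 5, against 3.39%. The median difference of the 6 genes from the control mean was -1.001 (log2), with a range from -1.53 to -0.68, and the median of all genes tested was 0.03. Against the operation-site control alone the median was -1.13, and against Tsukuba alone it was -0.79.

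By limma, *nlp-30* differed from the control mean by -1.53 ± 0.40 (log2, SE) in space flight, with an adjusted p of 0.970. *nlp-31* differed by -1.103 ± 0.30, *nlp-33* by -1.08 ± 0.27, *nlp-29* by -0.92 ± 0.36, *nlp-27* by -0.76 ± 0.37 and *nlp-28* by -0.68 ± 0.25, each with the same adjusted p. None of the 10076 genes passed (0%). At an unadjusted p under 0.05 there were 144 genes, *nlp-30*, *nlp-31* and *nlp-33* among them. By chance alone, 503.8 of the 10076 genes would be expected at that threshold in a contrast, more than any contrast here gave. By the size of the limma difference, *nlp-30* was the gene with rank 40 from below among the 10076.

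Clinorotation, a ground model of microgravity, gave a smaller median difference, -0.71 (log2) from the control mean, where the median of all genes tested was 0.01. All 6 genes lay below both controls, against 27.7% of all genes tested, and none above both, against 28.4%. None was at least 2-fold below, as for all but 3 of the 10076 genes (0.0298%). Against the operation-site control alone, 3 of the 6 were at least 2-fold below, against 4.71% of all genes tested. At 1.5-fold below both controls there were 2, against 1.26%. The farthest was *nlp-27*, 1.59-fold below the nearer control, with a difference of -0.94 ± 0.37 from the control mean (limma SE). *nlp-31* (-0.83 ± 0.30), *nlp-30* (-0.82 ± 0.40), *nlp-29* (-0.61 ± 0.36) and *nlp-28* (-0.36 ± 0.25) followed, and *nlp-33* was at -0.03 ± 0.27. No gene passed limma (0%) and the adjusted p was 1 for all 6. At an unadjusted p under 0.05 there were 33 genes, with none of the 6 among them.

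In hypergravity the 6 genes had a median difference of -0.75 (log2), and all genes tested a median of 0.0013. All 6 lay below both controls, against 32.7% of all genes tested, and none above both, against 33.2%. None reached 2-fold below the nearer control, which 0.665% of all genes tested did, but *nlp-31* (1.96-fold) and *nlp-30* (1.95-fold) came close. Against the operation-site control alone, 3 of the 6 were at least 2-fold below, against 6.63% of all genes tested. At 1.5-fold below both controls there were 3, against 4.28%. The differences of *nlp-31* and *nlp-30* from the control mean were -1.16 ± 0.30 and -1.204 ± 0.40 (log2, limma SE). *nlp-29* differed by -0.81 ± 0.36, *nlp-27* by -0.70 ± 0.37, *nlp-33* by -0.65 ± 0.27 and *nlp-28* by -0.46 ± 0.25. The limma adjusted p was 0.948 for all 6 and no gene passed (0%). At an unadjusted p under 0.05 there were 250 genes, *nlp-30* and *nlp-31* among them.

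**Figure D2:**
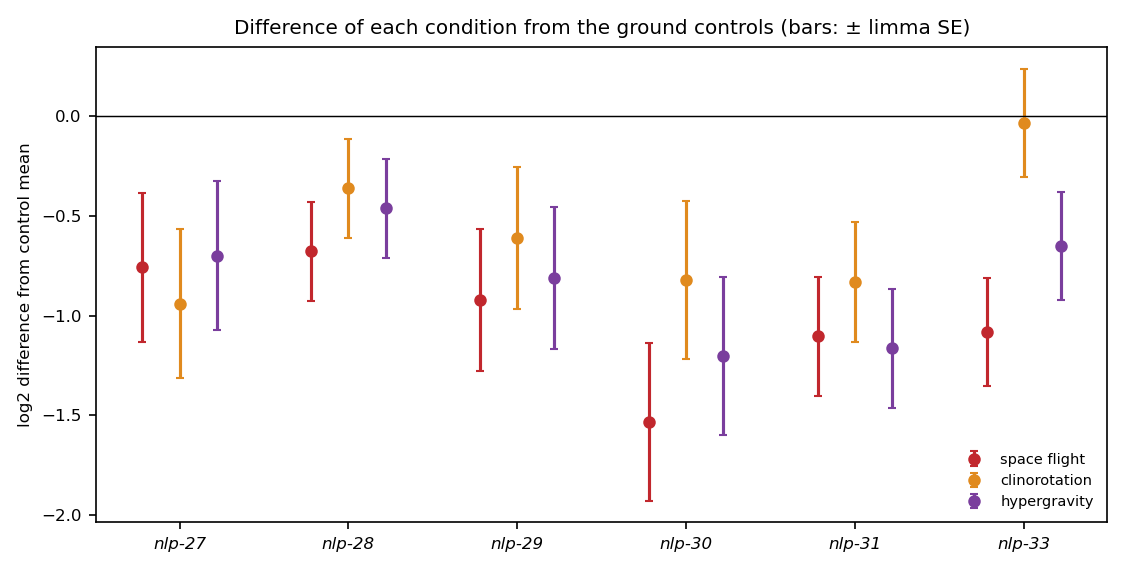
Log2 difference of each condition from the mean of the 2 ground controls (vertical axis) for each measured gene. Points are single arrays against the control mean, and bars are ± the limma SE. The points are all below 0, from -1.53 for *nlp-30* in space flight to -0.03 for *nlp-33* in clinorotation, whose bar crosses 0.

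**Figure D3:**
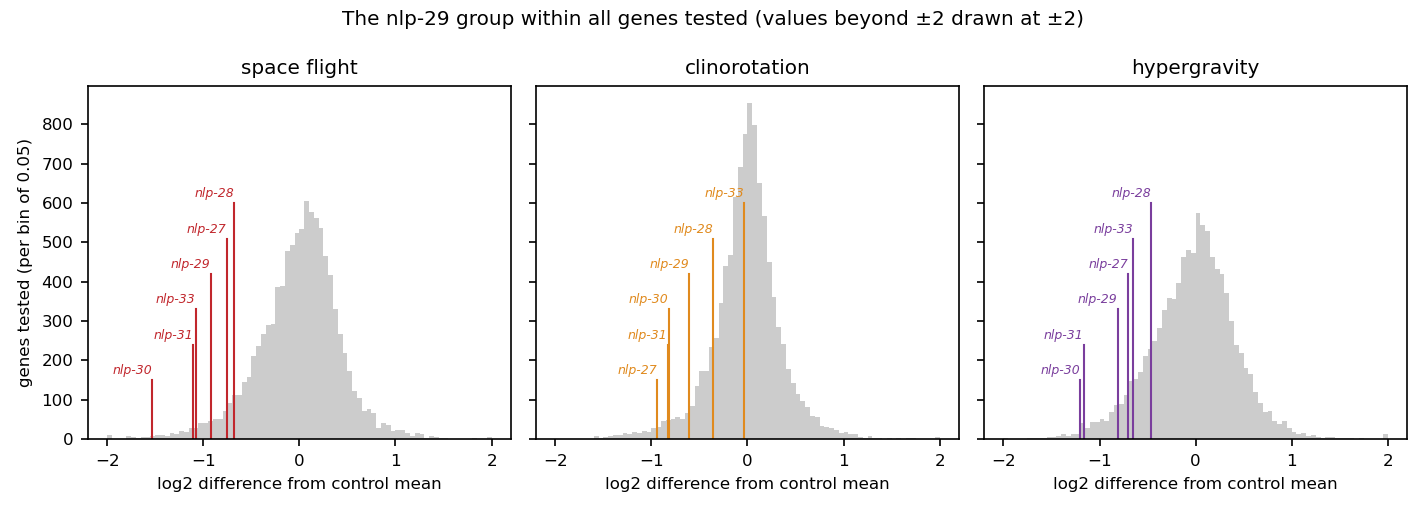
Number of genes tested (vertical axes) by their log2 difference from the control mean (horizontal axes) in each condition, in grey, with the 6 measured genes as coloured lines. Line heights only separate the labels. In space flight the lines run from -1.53 to -0.68, to the left of most genes, and in clinorotation the *nlp-33* line (-0.03) lies in the middle of the distribution.

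Of the 6 genes, *nlp-33* had the widest spread between conditions. Space flight was lower than clinorotation by -1.05 ± 0.31 (log2, limma SE, adjusted p = 0.906, unadjusted p = 0.0363). For *nlp-30* the same contrast was -0.71 ± 0.46, and for *nlp-27* it was 0.18 ± 0.43. The other three differed by between -0.32 and -0.27. Between space flight and hypergravity the 6 differences ran from -0.43 for *nlp-33* to 0.06 for *nlp-31*. No gene passed limma in either contrast (0% of 10076 in each), with 169 and 197 genes at an unadjusted p under 0.05.

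These differences depended on how the arrays were brought to a common level. Without scaling, the median of all genes lay 0.62 (log2) above the controls in space flight, 0.29 in clinorotation and 0.39 in hypergravity. In the deposited signals *nlp-30* (67.1, 92.1 and 73.2 in space flight, clinorotation and hypergravity, against 164 at the operation site and 106 at Tsukuba) and *nlp-31* (296, 280.0 and 240, against 469 and 331) were below both controls in all 3 conditions. *nlp-27* (210, 148 and 184.5, against 285 and 176) was below both only in clinorotation and between them in the other conditions. *nlp-29* read 224, 221 and 206 as deposited, against 338 and 213, and was between the controls in space flight and clinorotation. *nlp-28* (289, 282 and 284, against 307 and 269) was between them in all 3 conditions. *nlp-33* in clinorotation (269, against 233 and 208) was above both, and in space flight (159) and hypergravity (186) it was below both. Relative to the unscaled median of all genes, the 6 differences ran from -1.59 to -0.61 in space flight, from -0.89 to -0.0029 in clinorotation and from -1.23 to -0.40 in hypergravity. All 18 were thus below that median.

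The ground controls differed from each other as well. The operation-site signal was 1.45-fold that of Tsukuba for *nlp-27*, 1.43-fold for *nlp-29*, 1.40-fold for *nlp-30* and 1.30-fold for *nlp-31*, while *nlp-28* (1.02-fold) and *nlp-33* (1.00-fold) were alike at both sites. RNA signals of genes used as markers of other tissues also differed between the arrays. The summed signal of 3 sperm genes above the floor was 5831 in space flight, 1109 in clinorotation and 1649 in hypergravity, against 5816 at the operation site and 1428 at Tsukuba. Of 6 body wall muscle markers, 5 were below both controls in space flight, 3 in clinorotation and 3 in hypergravity, with medians of -0.38, -0.12 and -0.12 (log2). Of 6 neuronal markers, 3, 1 and 5 were below both in space flight, clinorotation and hypergravity, with medians of -0.25, -0.02 and -0.64. These counts use 1 probe set per gene. Second probe sets of *rab-3*, *snb-1* and *unc-104* were below both in all 3 conditions, and that of *egl-3* was above both in clinorotation. Of 6 germ line markers, 0, 1 and 1 were below both and 5, 1 and 3 above, with medians of 0.45, -0.10 and 0.12. Of 6 intestinal markers, 2, 3 and 2 were below both and 1, 0 and 2 above. Without scaling, 0 muscle markers were below both and 4 above in space flight, and 4 neuronal markers were below both and 1 above in hypergravity. The part of population make-up in the peptide genes' differences was not tested.

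The epidermis as a tissue was followed by its marker genes. Of 11 listed epidermal markers, 10 had a probe set and 9 were above the floor. In space flight 6 of the 9 were below both controls and 1 above, with a median of -0.22 (log2), in clinorotation 3 and 2 with -0.06, and in hypergravity 3 and 3 with 0.09. Without scaling the space flight median of the markers was 0.10, with 2 below and 5 above both controls, and the medians in clinorotation and hypergravity were 0.23 and 0.49. Their summed signal was 5706 in space flight, 6404 in clinorotation and 6987 in hypergravity, against 7426 at the operation site and 6123 at Tsukuba. Most of that sum was 1 probe set of the collagen gene *sqt-3*, at 4234, 4760 and 5271 against 5568 and 4394. A second *sqt-3* probe set read 842, 1657 and 2274 against 1032 and 1586, above both controls in clinorotation and hypergravity. Of the 9, only the marker *che-14* reached the floor, in space flight. The collagen gene *rol-6*, a cuticle component, was the marker farthest below the nearer control, at 128, 160.1 and 94.4 against 268 and 253. By the difference from the control mean, the collagen gene *dpy-7* was farther below in space flight, at -1.33 (log2). The part of epidermal content in the peptide genes' differences was not tested.

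For the scaled counts of every list here, 29.4%, 27.7% and 32.7% of all genes tested lay below both controls in space flight, clinorotation and hypergravity. The shares above both were 36.3%, 28.4% and 33.2%. Among the genes that act upstream of *nlp-29*, 14 of 16 were above the floor. In space flight 6 lay below both controls and 1 above, with a median of -0.16 (log2). In clinorotation these counts were 4 and 3 with a median of 0.13, and in hypergravity 5 and 2 with -0.12. Without scaling, 3 were below and 8 above in space flight, 1 and 11 in clinorotation, and 2 and 8 in hypergravity. None was at least 2-fold outside the controls, and none passed limma. The receptor gene *dcar-1* read 225, 443 and 316 in space flight, clinorotation and hypergravity, against 257 and 499.7 at the operation site and Tsukuba. *gpa-12*, for the G protein alpha subunit, read 67.3, 150.5 and 138 against 95.7 and 189.8. Both were below the controls in space flight and between them in the other two conditions. A second probe set of *dcar-1* was below both in hypergravity as well.

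Of the kinase cascade, the adaptor gene *tir-1* read 135 in space flight, 240.3 in clinorotation and 186 in hypergravity, against 201 and 273 at the operation site and Tsukuba. The MAP kinase kinase gene *sek-1* (324, 448 and 353 against 313 and 437) and the p38 gene *pmk-1* (34.5, 53.1 and 57.0 against 26.4 and 71.4) lay between the controls, except *sek-1* in clinorotation, just above both, and a second *sek-1* probe set was below both in hypergravity. *nipi-3*, a Tribbles-family pseudokinase gene needed for the induction, read 619, 815 and 713 against 597 and 777. *sta-2* was at the floor in space flight and read 52.8 and 30.0 in clinorotation and hypergravity, against 38.8 and 55.2. *snf-12* read 60.5, 32.7 and 39.0 against 61.5 and 44.8. *elt-3* was below both controls in all 3 conditions, at 307, 382 and 317 against 437 and 475. A second probe set of *elt-3* was below both only in space flight (183 against 222 and 429.7), and without scaling the first was above both in space flight and clinorotation, by 0.10 and 0.07 (log2).

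The remaining upstream genes lay close to the controls or on both sides of them. *akir-1*, for a nuclear cofactor of the response, read 1238, 1530 and 1568 in space flight, clinorotation and hypergravity, against 1295 and 1287, above both controls in clinorotation and hypergravity. Its second probe set was above both in all 3 conditions. *tpa-1*, the protein kinase C gene, read 136, 157 and 123 against 135 and 159, and its second probe set was below both in space flight and hypergravity. The phospholipase C genes *egl-8* (207, 208 and 169 against 321 and 125) and *plc-3* (82.9, 69.4 and 80.9 against 72.0 and 80.5), and *rack-1* (8649, 8341 and 8524 against 8411 and 8693), were inside the controls' range or just outside it. A second *egl-8* probe set was above both in clinorotation and below both in hypergravity.

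Of 7 listed negative regulators, 4 were above the floor, and 2, 1 and 2 of them were below both controls in space flight, clinorotation and hypergravity. Without scaling none of the 4 was below both controls. The farthest outside of these listed genes was *pnp-1*, a purine nucleoside phosphorylase gene whose link to *nlp-29* was not tested here. It read 728, 1086 and 934 in space flight, clinorotation and hypergravity, against 961 and 1256. Its second probe set lay between the controls in all 3 conditions. The phosphatase gene *vhp-1*, which restrains MAP kinases, read 422, 568 and 467 in space flight, clinorotation and hypergravity, against 442 and 546. *osm-11*, a secreted protein of the osmotic response, read 1994, 1908 and 1729 against 2276 and 1958, with its second probe set below both in space flight and hypergravity and above both in clinorotation. *osm-7* (66.6, 61.8 and 59.1 against 83.1 and 59.1) lay within the controls' range. Genes induced by high salt, a known trigger of *nlp-29*, were set beside it. Of the 4 listed, 3 were below both controls in space flight, 2 in clinorotation and 3 in hypergravity, with medians of -0.71, -0.38 and -0.89 (log2). Without scaling these counts were 1, 1 and 2, with medians of -0.07, -0.08 and -0.49. *gpdh-1*, the glycerol-3-phosphate dehydrogenase that makes glycerol as an osmolyte, read 263, 199 and 198 against 605 and 359.8. *hmit-1.2*, a myo-inositol transporter gene, read 47.6, 120.2 and 40.8 against 105 and 121, at least 2-fold below both in space flight and hypergravity after scaling, and only in hypergravity without it.

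Loss of the furrow collagens of the cuticle is known to switch *nlp-29* on without infection. All 5 of these collagen genes with a probe set were below both controls in space flight, also without scaling, with a median of -1.30 (log2) after scaling and -0.74 without it. The controls differed for this list, with a median of -0.95 for operation site minus Tsukuba. After scaling, the space flight median was -0.85 against the operation-site control alone and -1.57 against Tsukuba alone. In clinorotation 2 of 5 were below both and 0 above, with a median of 0.06, and in hypergravity 2 below and 1 above, with a median of 0.14. Without scaling these were 1 below and 3 above (median 0.35) in clinorotation and 2 below and 3 above (median 0.49) in hypergravity. *dpy-9* read 32.5, 57.6 and 48.8 in space flight, clinorotation and hypergravity, against 87.3 at the operation site and 73.4 at Tsukuba. *dpy-3* read 42.1, 220 and 205 against 79.6 and 234, with clinorotation and hypergravity between the controls. In space flight *dpy-2* read 43.6 against 64.9 and 129. Its second probe set, whose unscaled position is not given here, read 38.8 in space flight against 44.2 and 87.0.

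The caenacins, the other family of antimicrobial peptides of the epidermis, depend on the TGF-beta ligand DBL-1 for some of their induction. Of 11 listed, 8 had a probe set and 5 were above the floor. In each condition 3 of these 5 were below both controls, with medians of -0.57, -0.31 and -0.66 (log2) in space flight, clinorotation and hypergravity. Without scaling 1, 2 and 3 were below both, and the medians were -0.0090, 0.0081 and -0.24. The scaled counts in space flight and clinorotation include *cnc-7*, which was at the floor on both arrays. Its controls read 42.6 at the operation site and 32.2 at Tsukuba, and its second probe set was at the floor on all 5 arrays. *cnc-8* read 179, 163 and 180.3 in space flight, clinorotation and hypergravity, against 298 and 271, and *cnc-3* read 101.1, 140.1 and 100.6 against 169.5 and 179. *cnc-6* was above both at 91.4 and 129 in clinorotation and hypergravity, against 32.1 and 65.5, with 35.3 in space flight. Of the 7 DBL-1 pathway genes, 3, 1 and 6 were below both controls in space flight, clinorotation and hypergravity, and without scaling 1, 0 and 0. The ligand gene *dbl-1* read 55.9, 92.6 and 72.4 against 78.0 and 86.3, although a second probe set was between the controls in space flight and clinorotation and above both in hypergravity.

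Other *nlp* genes could be set beside the group only in part. Of the related *nlp-24*, *nlp-25*, *nlp-26* and *nlp-32*, 2 were above the floor. *nlp-26* was at the floor in space flight and read 58.4 and 64.1 in clinorotation and hypergravity, against 32.3 at the operation site and the floor at Tsukuba. *nlp-25* read 47.1 in space flight, between the controls at 50.2 and 30.0, and was at the floor in clinorotation and hypergravity. The remaining *nlp* genes, most of them neuronal, numbered 42 above the floor. In space flight 26 of them were below both controls and 4 above (median -0.23), in clinorotation 14 and 5 (median -0.10), and in hypergravity 34 and 4 (median -0.57). Without scaling 3 were below and 28 above in space flight, 3 and 23 in clinorotation, and 15 and 10 in hypergravity. After scaling, 4 of the 42 were at least 2-fold below both in hypergravity, against 0.665% of all genes tested. These were *nlp-2*, *nlp-14*, *nlp-89* and *nlp-91*. *nlp-39* was above both there by 1.40 (log2), at 524 against 54.9 and 199, where 0.238% of all genes tested lay at least 2-fold above. The corresponding shares were 0.149% in space flight and 0.0893% in clinorotation, and no other gene of these pathway lists was that far above in any condition.

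**Figure D4:**
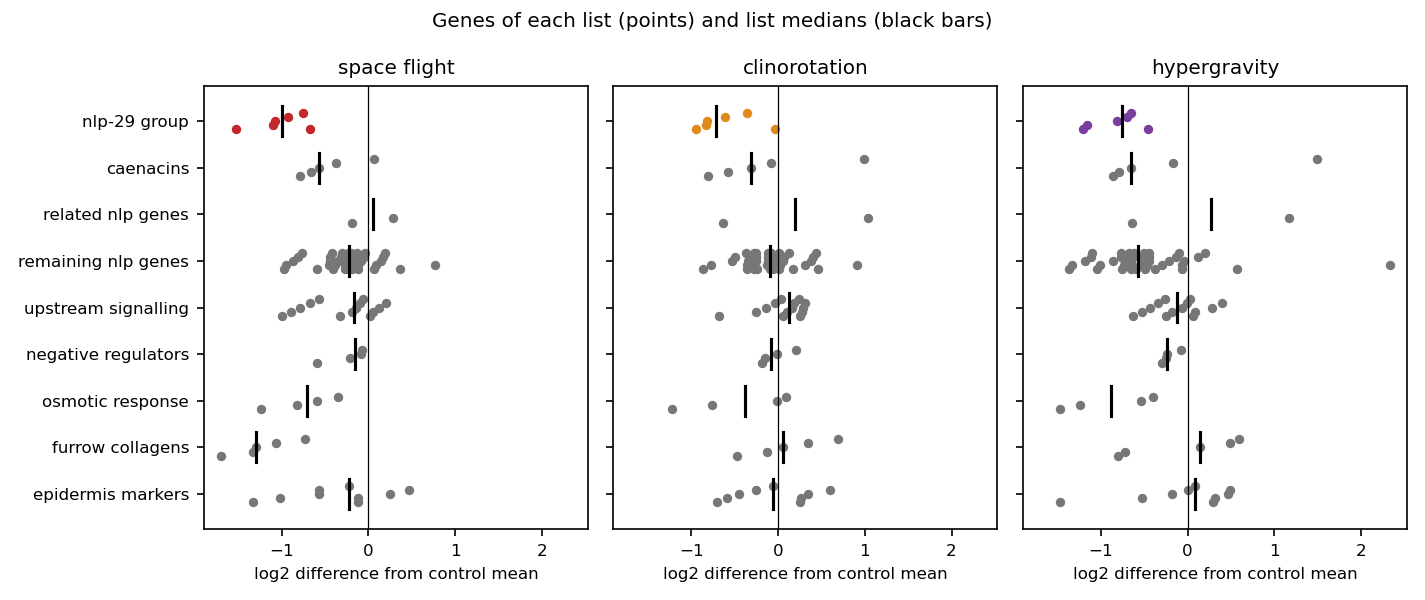
Log2 difference from the control mean (horizontal axes) of each gene above the floor (points) in 9 lists, with the list median as a black bar, for the 3 conditions. The *nlp-29* group, in colour, has medians of -1.001, -0.71 and -0.75. Furrow collagens lie left of 0 in space flight (median -1.30) and on both sides of it in the other conditions.

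On chromosome V the RefSeq gene table lists *nlp-34*, *nlp-31*, *nlp-30*, *nlp-29*, *nlp-28* and *nlp-27* one after another, with no other protein-coding gene between them. The 12 nearest flanking protein-coding genes included 11 with a probe set, of which 9 were at the floor on all 5 arrays. Most of these have names of the chemoreceptor families *str*, *srx* and *srh*. Above the floor were the cytochrome P450 genes *cyp-34A8* and *cyp-34A9*, while *cyp-34A7* and *cyp-34A10* were among the genes at the floor. *cyp-34A8* read 93.1 in space flight, 53.2 in clinorotation and 52.4 in hypergravity, against 107 and 68.7 at the operation site and Tsukuba. *cyp-34A9* read 353, 314 and 312 against 430.0 and 369.7, below both controls in all 3 conditions but by at most 0.24 (log2). Beside *nlp-33*, 5 of 12 flanking genes were above the floor, and the nearest of them, *T19C4.1*, was at the floor in space flight and between the controls in the other conditions.

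**Figure D5:**
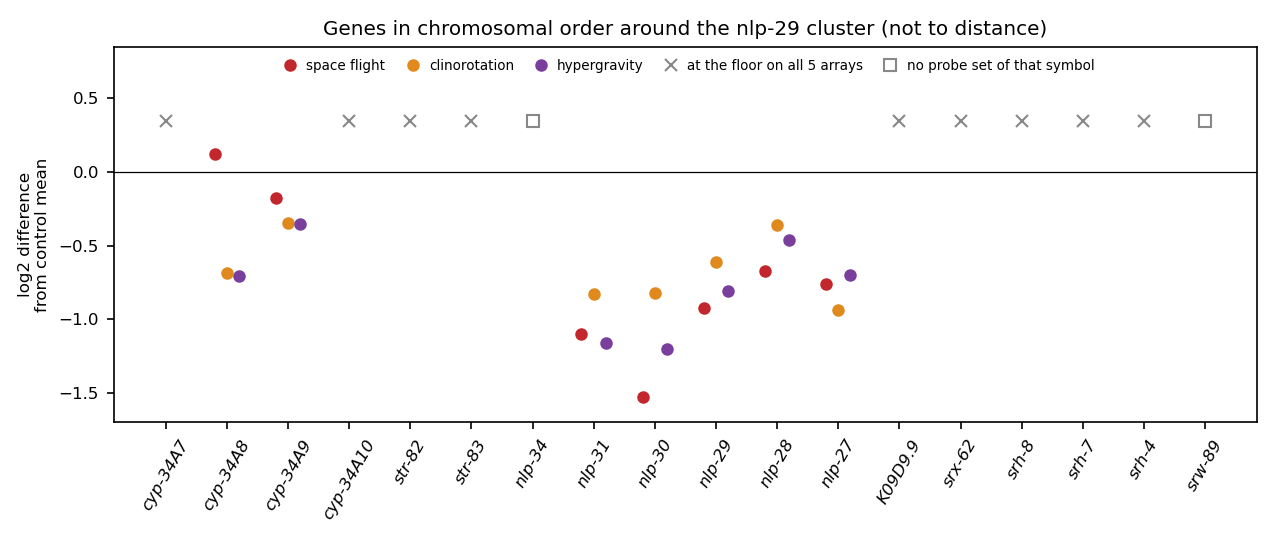
Log2 difference from the control mean (vertical axis) of protein-coding genes in their order along the chromosome, not drawn to distance. Crosses mark genes at the floor on all 5 arrays and open squares genes without a probe set of that symbol. The 5 measured genes of the cluster lie between -1.53 and -0.36, flanked by genes at the floor.

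The 6 genes followed similar courses over the 5 arrays. Pearson's r between pairs of them had a median of 0.908 over 15 pairs and ran from 0.479, for *nlp-27* with *nlp-33*, to 0.982, for *nlp-29* with *nlp-30*. These values rest on 5 arrays with shared scaling. The probe sets of the 5 clustered genes also carry the suffix _x_at, and that of *nlp-33* the suffix _s_at, which mark sets that may bind more than 1 transcript. How far related transcripts share signal in these probe sets was not tested. Among 1737 other genes above the floor on all 5 arrays with a log2 range of at least 1, the closest to the mean course of the 6 were *oig-2* (r = 0.992), *ephx-1* (0.977), *C15A11.7* (0.975), *F16B4.4* (0.962), *W09G12.7* (0.956) and *dpy-9* (0.955), over the same 5 arrays. *oig-2*, the closest, read 105, 133 and 125 in space flight, clinorotation and hypergravity, against 219 at the operation site and 171 at Tsukuba. *dpy-9* is one of the furrow collagens described above.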

How the data were processed

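Labelled RNA of 5 worm groups was measured on 1-colour Affymetrix arrays, 1 per group. Per the labels' protocols, worms were frozen in liquid nitrogen, and 15 µg of total RNA served to make biotin-labelled cRNA. The authors deposited intensities, 1 linear signal per probe set from 0.1 to 13519, without detection calls. For the probe summary, the software was not given in the sources used here. Deposited medians were 57.1, 46.7 and 49.2 in space flight, clinorotation and hypergravity, against 42.6 at the operation site and 38.8 at Tsukuba.

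Probe sets were named by the platform annotation: 20766 of 22548 had 1 gene symbol, 887 several (no member among them) and 895 none. All 6 member symbols were the same in RefSeq (WBcel235). A gene was represented by its probe set with the highest mean log2 signal. Log2 signals of all probe sets were quantile normalized, values under the 40th percentile of all (24.9) were set to it, and genes with a mean above it (10076) were tested. limma 3.58.1 in R 4.3.3 (lmFit, eBayes with an intensity trend, two-sided, Benjamini-Hochberg over all genes) took the controls as 1 group. It has 1 residual degree of freedom and assumes that lone arrays vary like the controls. The controls came from different sites, so a p-value here rests on site, culture and technical differences together. It does not measure how replicate cultures of a condition vary, and the number of arrays limits precision. The computation was tested on simulated data with known changes in space flight. There limma found 8% of 2-fold and 68% of 4-fold changes, and the 2-fold rule found 38% and 88%. On the measured arrays, space flight differences from the control mean reached 3.16 (log2) without passing limma. Whether the shares found in simulation hold for the measured arrays was not tested. "Below both" and "2-fold" counts carry no test.

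Members, lists and tests were chosen with earlier results of these data known. All members were described. Up to 4 genes per list were named, those farthest outside both controls, with the 14 upstream genes above the floor and the 6 genes likest in course. *nlp-89*, *dpy-2*, *cnc-7*, *T19C4.1*, *cyp-34A8* and *cyp-34A9* were named after their values were seen. Alternatives covered scaling, floor, filter, trend, fold, probe sets and each control left out. Promoter and protein sequences were not used here.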

Additional observations from a re-analysis of the deposited data

How the results depend on the processing

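Of the 18 differences of single members, 18 were below 0 with trimmed mean scaling and with either control left out, and 16 without scaling, where *nlp-28* in space flight was at 0.011 (log2) and *nlp-33* in clinorotation was at 0.29. Without scaling, 3 members were below both controls in space flight and 0 at least 2-fold below, with a median of -0.33. In clinorotation 3 were then below and 1 above, with a median of -0.39, and in hypergravity 4 were below, with a median of -0.33. The share of all genes below both controls was not computed without scaling, so the unscaled counts of members and lists have no background. The unscaled median of all genes lay above the controls, by 0.62 (log2) in space flight, 0.29 in clinorotation and 0.39 in hypergravity. Relative to that median, all 18 differences were below 0. With 1 control left out, the members at least 2-fold below numbered from 2 to 5 in space flight, from 0 to 3 in clinorotation and from 0 to 3 in hypergravity. The higher counts came without the Tsukuba control, where 1.18%, 4.71% and 6.63% of all genes tested lay that far below. These are values with no test. At 1.5-fold the counts were 5, 2 and 3, where 3.39%, 1.26% and 4.28% of all genes tested lay that far below. Trimmed mean scaling put *nlp-33* between the controls in clinorotation and left 5 members below both. No member passed limma without the trend or without the filter. The other floors, the trend, the filter and counting every probe set leave a member's difference as it is by construction, apart from 1 at the 55th percentile floor. No paired analysis was possible because each condition has 1 array. Detection calls were not used here, so background limits rest on the floor alone.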
